A study of Mus musculus with 6 samples.

Results

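Small nucleolar RNA (snoRNA) host genes and other long noncoding RNAs were examined in mouse liver tumour cell lines. The set was chosen by gene name and holds 10 of the 53465 genes in the table: Gas5, Snhg1, Snhg3, Snhg5, Snhg6, Snhg8 and Snhg12, which carry snoRNAs in their introns, and Malat1, Neat1 and Pvt1, which do not. RNA was sequenced from 3 Myc_Utx cell lines, named 2A, 2B and 2D, and from 3 Myc_p53 cell lines, named 1, 2 and 3. Utx is another name of Kdm6a, an H3K27 demethylase. Each line was grown from a liver tumour of an adult female C57BL/6 mouse, induced by tail vein injection of a Myc transposon, with expression driven by the EF1a promoter, together with a plasmid for Cas9 and a guide RNA, against Kdm6a in the Myc_Utx group. All 6 lines therefore carry ectopic Myc. The cultures were judged by eye to hold tumour cells alone. The Myc_p53 lines carry a targeted gene of their own, so the effect of Kdm6a loss and of that other genotype cannot be told apart here. The lines are separate cultures, and each was counted as 1 replicate.

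Between 4656103 and 6937497 reads per cell line were counted in genes, and mitochondrial genes took 2.24% to 3.16% of them. Levels are given as TMM-normalized CPM, in which each library is scaled by its total and a factor for its makeup. Kdm6a mRNA was at 39.7, 45.7 and 49.0 CPM in Myc_Utx lines and at 69.5, 64.5 and 42.5 CPM in Myc_p53 lines, with overlap, a log2 fold change of -0.39 and an adjusted p = 0.243 in edgeR's quasi-likelihood test. An edited gene can still be transcribed, so the Kdm6a mRNA level does not check that label. Among hepatocyte markers, the defining genes Alb, Hnf4a and Tat were low, with 4 to 26, 0 to 64 and 0 to 24 counts in a line. The epithelial keratins Krt8 and Krt18 of the same list were high in Myc_p53 line 1, with 4537 and 2984 counts, and in line 3, with 3130 and 2208. They had 83 and 108 counts in Myc_p53 line 2, 61 and 48 in 2A, 200 and 256 in 2B and 0 of both in 2D.

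A snoRNA host gene is transcribed and spliced like a messenger RNA, and its introns are trimmed to snoRNAs, which guide chemical modification of ribosomal and spliceosomal RNA. The spliced remainder codes for no known protein, and for several hosts it is degraded by nonsense-mediated decay when ribosomes read it. Many hosts, Gas5 among them, begin transcription at a C within a run of pyrimidines, the terminal oligopyrimidine (TOP) start that they share with ribosomal protein genes and that ties translation to mTORC1. Malat1 is a nuclear RNA of splicing speckles. Neat1 is the scaffold RNA of paraspeckles. Pvt1 lies downstream of Myc.

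The transcription starts are shown because a TOP start is a feature of host genes that the choice by name did not use. The promoter table of RefSeq (GRCm38.p6) held 7 of the 10 genes with 8 starts. Each window below runs 5′ to 3′ on the gene's strand from 20 bases before the annotated start to the 20th base from it on. Capitals mark the unbroken run of C and T that begins at the start, and windows without capitals begin with A or G.
Gas5, upstream start (chr1:161034581-161034620, plus strand): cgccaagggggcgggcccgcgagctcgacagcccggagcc
Gas5, downstream start (chr1:161035146-161035185, plus strand): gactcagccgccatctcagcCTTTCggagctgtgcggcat
Snhg1 (chr19:8723467-8723506, plus strand): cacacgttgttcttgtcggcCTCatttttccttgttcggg
Snhg3 (chr4:132353667-132353706, minus strand): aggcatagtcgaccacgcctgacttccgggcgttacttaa
Snhg5 (chr9:88522878-88522917, minus strand): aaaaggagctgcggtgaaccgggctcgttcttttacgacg
Snhg8 (chr3:123508317-123508356, minus strand): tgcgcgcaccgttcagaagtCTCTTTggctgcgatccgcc
Snhg12 (chr4:132308658-132308697, plus strand): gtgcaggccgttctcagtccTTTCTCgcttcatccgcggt
Malat1 (chr19:5802653-5802692, minus strand): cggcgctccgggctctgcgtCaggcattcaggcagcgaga

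Of these 8 starts, 2 began with C and had a run of at least 4 pyrimidines, the downstream start of Gas5 with a run of 5 and that of Snhg8 with a run of 6. Among the 32851 starts of all genes in the table, 3.76% met the same rule. Snhg12 had a run of 6 that began with T, and Snhg1 a run of 3. An annotated start can lie some bases from the one used in these cells, so a short run says only that these letters do not stand at this position. The E-box CACGTG, the core motif bound by MYC and its partner MAX, was searched from 250 bases before to 50 bases after each start. It reads the same on both strands. It was found at 0 of the 8 starts and at 7.15% of all starts.

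Per kilobase of listed exons, Malat1 and Gas5 were the 2 highest of the 10 RNAs in every line but 2D, and Snhg3 was the lowest in every line. Malat1 was first among the 10 RNAs in all 3 Myc_p53 lines, at 162.9, 169.7 and 127.9 CPM per kilobase, and Gas5 was next, at 64.0, 72.4 and 55.3. In Myc_Utx lines the same measure was 61.7, 67.9 and 61.2 for Malat1 and 77.7, 64.1 and 81.1 for Gas5, so that Gas5 was first in 2A and 2D and Malat1 in 2B. In 2D Snhg6, at 63.9, came between them and Malat1 was the third. Their ranges overlap in Myc_Utx lines and not in Myc_p53 lines. Below them, with that exception, were Snhg6, Snhg5, Snhg1 and Snhg8, whose levels lay between 33.6 and 63.9 CPM per kilobase in Myc_Utx lines and between 23.7 and 46.4 in Myc_p53 lines. The order of these 4 differed from line to line. Snhg12 and Neat1 followed. Snhg12 was at 18.0 to 30.0 in Myc_Utx and 14.1 to 20.7 in Myc_p53 lines, and Neat1 at 8.75 to 12.9 and 15.5 to 28.5. Snhg12 was the higher of the pair in the 3 Myc_Utx lines and in Myc_p53 line 1, and Neat1 in Myc_p53 lines 2 and 3. Pvt1 was ninth in every line, at 1.61 to 2.84 over the 6 lines. The listed length joins the exons of all isoforms, 25 of them for Gas5 and 4 for Neat1, so a gene with long exons that are seldom used is ranked too low.

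**Figure D1:**
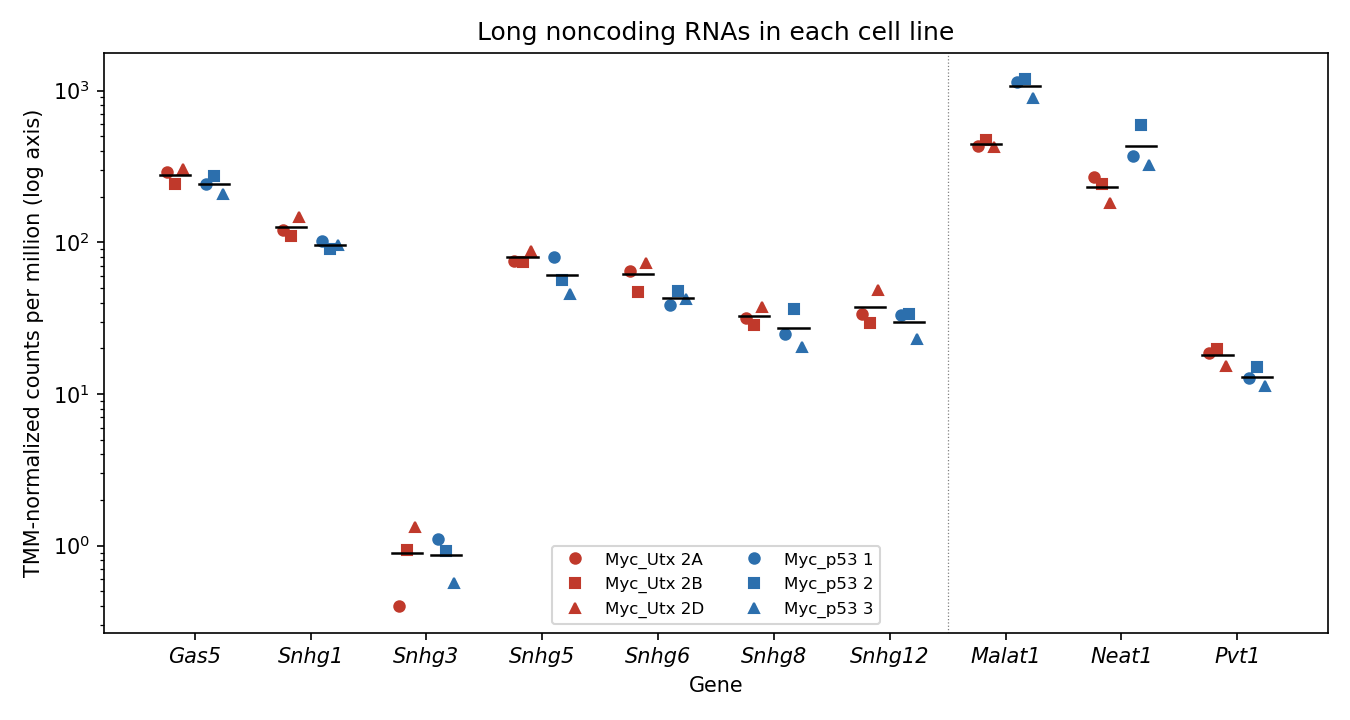
TMM-normalized CPM (log axis) of the 10 RNAs in each of the 6 cell lines. Red symbols are Myc_Utx and blue symbols Myc_p53 lines, and a black bar is the mean of 3 lines. The dotted line parts the snoRNA hosts from the other RNAs. Malat1 and Neat1 were lower in every Myc_Utx line than in any Myc_p53 line, while Gas5, Snhg5, Snhg6, Snhg8 and Snhg12 overlapped between the groups.

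The comparison between the groups asks which of these RNAs differ with the Kdm6a-targeted genotype. Of the 10 RNAs, 9 had enough counts to be tested. Malat1 was lower in Myc_Utx lines at an adjusted p under 0.05, and 0 of the 9 were higher. Neat1 was the other RNA whose estimate was below 0, and the 7 estimates above 0 belong to all 6 tested hosts and to Pvt1. The median log2 fold change of the 9 was 0.31, and that of all 11510 genes tested was -0.01. Of all genes tested, 805 (6.99%) were higher and 885 (7.69%) lower in Myc_Utx lines at this threshold, so 1 called RNA in 9 is near the background. With total counts in place of TMM the split over all genes was 601 higher and 1009 lower. The groups did not overlap for 4 of the 9 RNAs: Snhg1 and Pvt1 were higher and Malat1 and Neat1 lower in every Myc_Utx line. Among all genes tested, 21.1% did not overlap in the higher direction and 20.9% in the lower one. A test of 3 lines against 3 on single values cannot give a two-sided exact permutation p below 0.1, so calls rest on the fit across all genes. An unadjusted p under 0.05 was reached by 4 of the 9 RNAs (Malat1, Neat1, Snhg1 and Snhg6) and by 4026 genes in all.

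**Figure D2:**
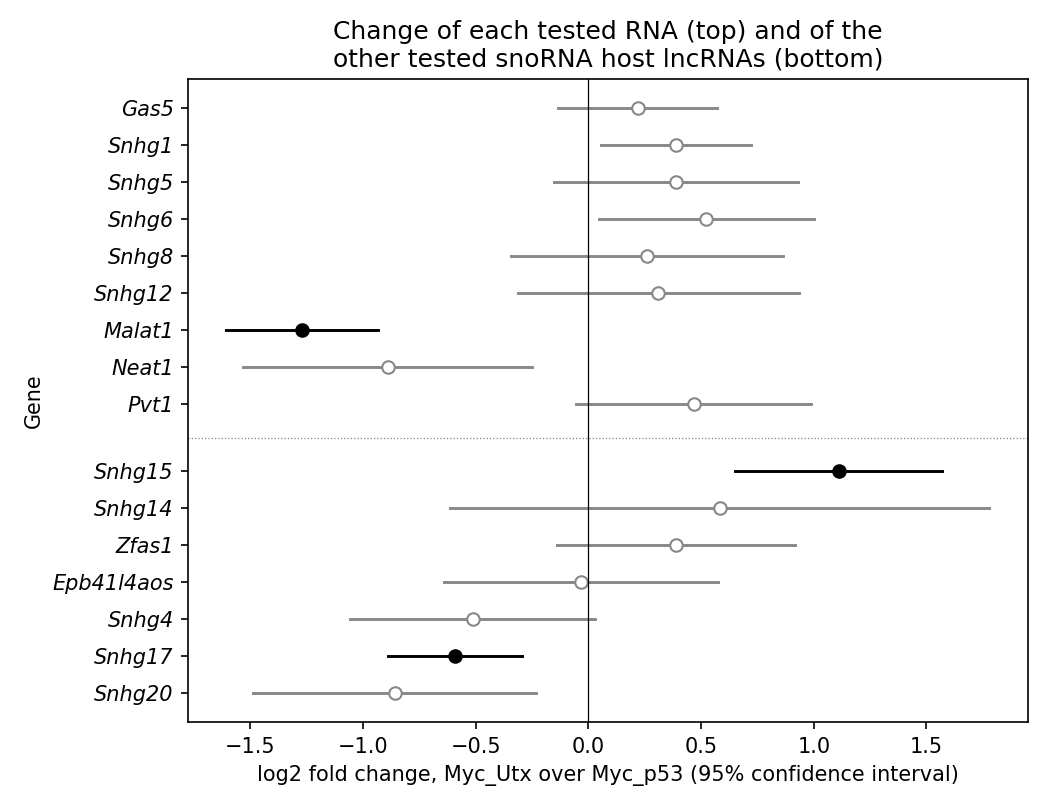
Log2 fold change of Myc_Utx over Myc_p53 with its 95% confidence interval for the 9 tested RNAs (above the dotted line) and 7 other tested snoRNA host RNAs (below it). Filled symbols passed an adjusted p under 0.05. The intervals of Malat1 and Neat1 lie below 0, those of Snhg1 and Snhg6 lie above 0 without passing the adjusted threshold, and Snhg15 and Snhg17 passed in opposite directions.

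Gene coordinates are those of the table, on GRCm38. Malat1 (ENSMUSG00000092341, chromosome 19, 5795690 to 5802672, minus strand) was lower in Myc_Utx lines by more than 2-fold. It was at 430.6, 474.5 and 427.3 CPM in Myc_Utx lines 2A, 2B and 2D and at 1137.6, 1184.8 and 892.9 CPM in Myc_p53 lines 1, 2 and 3. Every Myc_Utx line lay below every Myc_p53 line, with a wide gap between 474.5 and 892.9. The level fell 2.41-fold, with a log2 fold change of -1.27 (standard error 0.14, 95% interval -1.61 to -0.94, adjusted p = 0.0127 by edgeR). The call was lost when any 1 Myc_Utx line was left out, with adjusted p = 0.0614 without 2A, 0.0514 without 2B and 0.0600 without 2D, while the log2 fold change stayed between -1.39 and -1.19 with each of the 6 lines left out. With corrected transcript length it was -1.12 (adjusted p = 0.0168). Malat1 shares 453 of its 6983 exon bases with Gm37376 on the other strand, which had 0 counts in every line.

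Neat1 (ENSMUSG00000092274, chromosome 19, 5824708 to 5845478, minus strand) lies 22036 bases from Malat1. It was at 268.6, 242.1 and 181.7 CPM in Myc_Utx lines and at 370.1, 592.4 and 322.7 CPM in Myc_p53 lines. The groups did not overlap, and Myc_p53 line 2 stood above the other lines of its group. The log2 fold change was -0.89 (standard error 0.27, 95% interval -1.53 to -0.25), and the adjusted p = 0.0673 in edgeR missed the threshold. DESeq2 gave -0.89 with an adjusted p = 0.0133. Without Myc_p53 line 2 the estimate was -0.58 (adjusted p = 0.0926). With its 20771 exon bases Neat1 is the longest of the 10, and with corrected transcript length its log2 fold change was -0.55 (adjusted p = 0.217). Neat1 has a short and a long isoform, and counts per gene do not part them.

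Malat1 and Neat1 together took 0.0688%, 0.0699% and 0.0587% of all counts in Myc_Utx lines and 0.156%, 0.179% and 0.123% in Myc_p53 lines. The ratio of Malat1 to Gas5 counts was 1.47, 1.97 and 1.401 in Myc_Utx lines and 4.73, 4.35 and 4.29 in Myc_p53 lines, with no overlap. The ratio of Malat1 to Neat1 counts was 1.60, 1.96 and 2.35 against 3.07, 2.00 and 2.77, and here the groups overlap. Both ratios are taken within a library and so do not depend on the scaling between libraries. Mature Malat1 and the long form of Neat1 lack a usual poly(A) tail, and the step that selected RNA for the libraries is not given in the sources used here.

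Pvt1 (ENSMUSG00000097039, chromosome 15, 62037986 to 62378096, plus strand) begins 47612 bases from the end of Myc. It was at 18.7, 19.8 and 15.4 CPM in Myc_Utx lines and at 12.8, 15.01 and 11.3 CPM in Myc_p53 lines. Every Myc_Utx line was above every Myc_p53 line, by a small margin between 15.4 in 2D and 15.01 in line 2. The log2 fold change was 0.47 (95% interval -0.05 to 0.99, adjusted p = 0.179 by edgeR). The row of the Myc gene was at 39.3, 53.0 and 58.1 CPM against 73.2, 44.9 and 50.2 CPM, with overlap and a log2 fold change of -0.16 (adjusted p = 0.667). Whether reads of the Myc transposon enter this row was not tested.

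Gas5 (ENSMUSG00000053332, chromosome 1, 161034422 to 161038539, plus strand), which accumulates in growth-arrested cells and holds 10 rows annotated as snoRNAs, had the highest level of the hosts per kilobase in every line. It was at 292.0, 241.2 and 305.1 CPM in Myc_Utx lines and at 240.5, 272.3 and 207.9 CPM in Myc_p53 lines. The groups overlap, since Myc_p53 line 2 lay above Myc_Utx line 2B. The log2 fold change was 0.22 (95% interval -0.14 to 0.57, adjusted p = 0.330 by edgeR), with 0.33 without 2B and 0.12 without Myc_p53 line 3 (adjusted p = 0.235 and 0.624).

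Snhg1 (ENSMUSG00000108414, chromosome 19, 8723475 to 8726443, plus strand) holds 8 annotated snoRNAs, Snord22 among them. It was at 120.3, 110.1 and 146.1 CPM in Myc_Utx lines and at 101.5, 90.5 and 95.5 CPM in Myc_p53 lines. It was the 1 host whose groups did not overlap. The log2 fold change was 0.39 (standard error 0.14, 95% interval 0.06 to 0.72), with an unadjusted p = 0.0285 and an adjusted p = 0.102 by edgeR.

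Snhg6 (ENSMUSG00000098234, chromosome 1, 9941959 to 9944118, minus strand), the host of Snord87, had the largest estimate of the 6 tested hosts. It was at 64.2, 47.2 and 73.3 CPM in Myc_Utx lines and at 38.6, 47.8 and 42.1 CPM in Myc_p53 lines, and 2B lay just below Myc_p53 line 2. The log2 fold change was 0.52 (95% interval 0.04 to 1.002, unadjusted p = 0.0364, adjusted p = 0.119 by edgeR), and 0.24 with corrected transcript length (adjusted p = 0.392).

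Snhg5 (ENSMUSG00000097195, chromosome 9, 88521050 to 88522929, minus strand), the host of Snord50a and Snord50b, was at 75.8, 74.5 and 87.7 CPM in Myc_Utx lines and at 80.3, 56.0 and 45.5 CPM in Myc_p53 lines. Myc_p53 line 1 stood among the Myc_Utx lines, and the estimate was 0.39 on the log2 scale (95% interval -0.15 to 0.93, adjusted p = 0.263 by edgeR). Without that line it was 0.64 (adjusted p = 0.0655), without Myc_p53 line 3 it was 0.21 (adjusted p = 0.528), and with corrected transcript length it was 0.19 (adjusted p = 0.573).

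Snhg8 (ENSMUSG00000104960, chromosome 3, 123507552 to 123508404, minus strand), the host of Snora24, was at 31.5, 28.6 and 37.2 CPM in Myc_Utx lines and at 25.0, 36.1 and 20.2 CPM in Myc_p53 lines. The groups overlap through Myc_p53 line 2. Its log2 fold change of 0.26 (95% interval -0.34 to 0.86, adjusted p = 0.496 by edgeR) turned to -0.04 with corrected transcript length (adjusted p = 0.919). It was 0.52 without Myc_p53 line 2, 0.08 without Myc_p53 line 3 and 0.17 without 2D (adjusted p = 0.121, 0.839 and 0.750). At 853 exon bases it is the shortest of the 10.

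Snhg12 (ENSMUSG00000086290, chromosome 4, 132308678 to 132311024, plus strand) holds Snora44, Snora61, Snora16a and Snord99, and the table lists it from a later start than GENCODE M21. It was at 33.5, 29.2 and 48.8 CPM in Myc_Utx lines and at 33.2, 33.7 and 23.0 CPM in Myc_p53 lines. All lines but 2D and Myc_p53 line 3 lay close together, and the log2 fold change was 0.31 (95% interval -0.31 to 0.93, adjusted p = 0.430 by edgeR). It was 0.08 without 2D, 0.14 without Myc_p53 line 3 and 0.47 without 2B (adjusted p = 0.848, 0.747 and 0.314).

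Snhg3 (ENSMUSG00000085241, chromosome 4, 132348014 to 132353686, minus strand), which carries Snora73a and Snora73b, was left out of the test by its low counts. It had 2, 5 and 6 counts in Myc_Utx lines and 7, 5 and 4 in Myc_p53 lines. A fit without the filter gave a log2 fold change of 0.06 with a 95% interval from -1.51 to 1.63, which takes in a 2-fold change either way, so no difference was detectable at this depth. Of its 986 exon bases, 135 are shared with no other gene, 705 are shared on the other strand and 294 on its own strand. Gm17300 overlaps it on the other strand and had 34 to 85 counts per line. Rcc1, which encodes the exchange factor of Ran, overlaps it on its own strand and had 574 to 1100 counts per line. Reads on shared bases can be discarded or given to the other gene by the counting, and the strand setting is not given. The low row of Snhg3 is therefore uncertain as a measure of its RNA.

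Among the 6 tested hosts, Myc_Utx line 2D was highest of all 6 lines for 6 hosts, and 2B was the lowest Myc_Utx line for 6. Myc_p53 line 3 was the lowest line for 4 hosts. The protein-coding genes that carry snoRNAs had a like order, with 2D highest for 19 of 24 and Myc_p53 line 3 lowest for 18 of 24. Malat1, Neat1 and Pvt1 went the other way within the Myc_Utx group, where 2D was the lowest line for all 3. The 7 hosts together took 0.0608%, 0.0519% and 0.0675% of counts in Myc_Utx lines and 0.0537%, 0.0540% and 0.0439% in Myc_p53 lines, with overlap.

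The snoRNAs themselves were almost absent from the table. The 29 rows annotated as snoRNAs inside the 7 hosts had 0 to 7 counts per host summed over all 6 lines, with the 7 in Snhg6. All snoRNA and small Cajal body RNA rows together took 0.00294% to 0.00361% of counts in a line, so host RNA cannot be set against mature snoRNA here.

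Transcript length moved with the estimates. Across all genes tested Spearman's rho of log2 fold change with the listed exon length was -0.249, given as a description, since genes share the libraries. The hosts are short and stood above 0, and Neat1 and Malat1 are long and stood below 0. With offsets for length in each line, rho was -0.0101, and Malat1 was still called, at -1.12. The estimates of all tested RNAs but Pvt1 moved towards 0 or past it. Snhg1 was 0.32, Gas5 0.21 and Pvt1 0.61 in that fit.

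**Figure D3:**
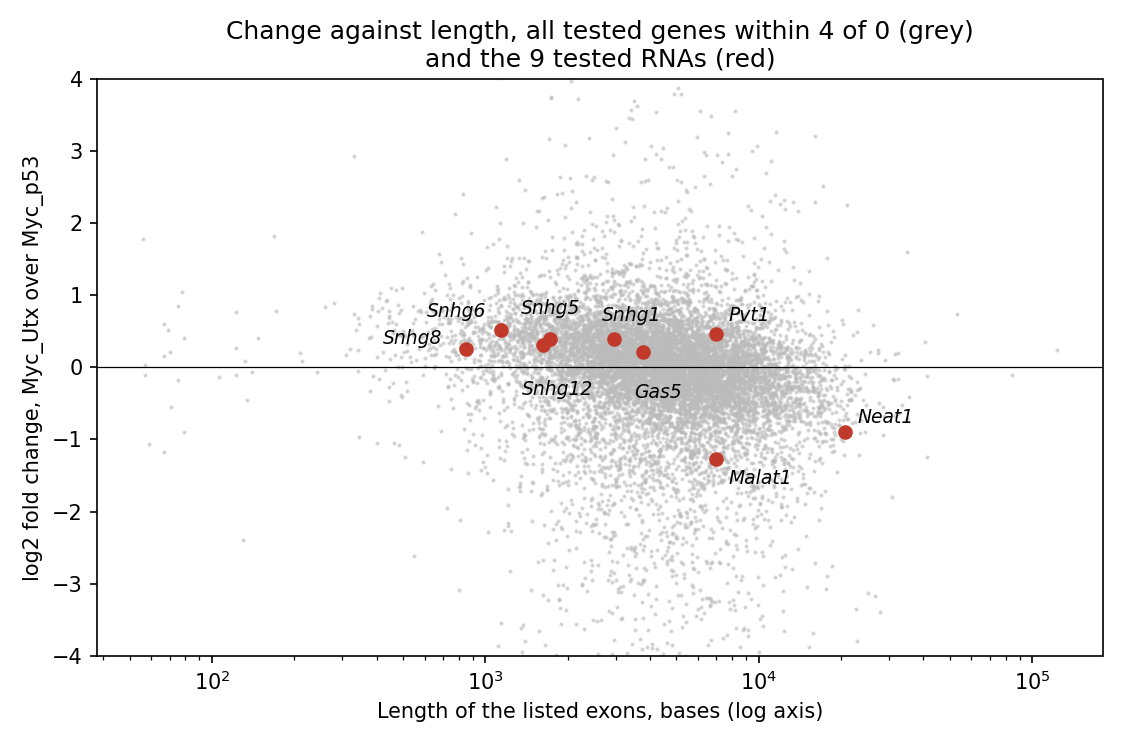
Log2 fold change of Myc_Utx over Myc_p53 against listed exon length (log axis). Grey dots are genes tested with a log2 fold change within 4 of 0, and red dots the 9 tested RNAs. Neat1, at 20771 bases, and Malat1, at 6983 bases, lie below 0, and Pvt1, with 6996 bases, lies above 0.

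**Figure D4:**
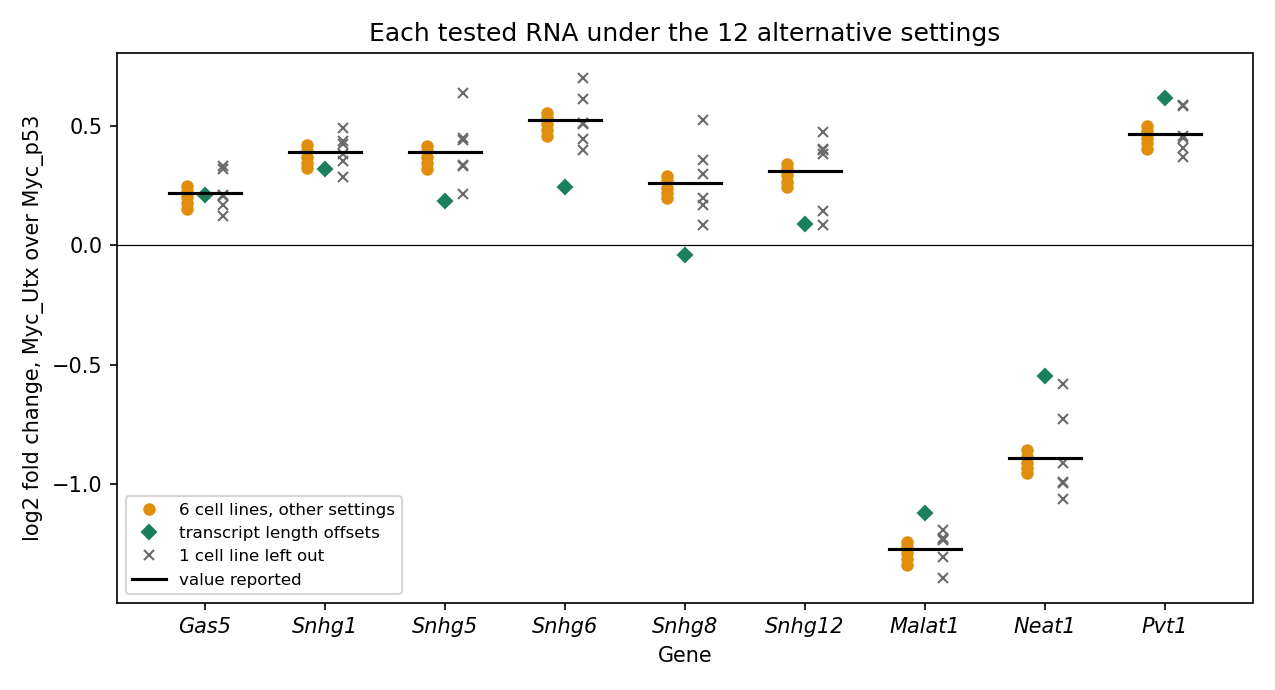
Log2 fold change of each tested RNA under 12 alternative settings. The black bar is the value reported, orange dots are other settings with all 6 lines, green diamonds the correction for transcript length and grey crosses the fits without 1 cell line. Malat1 stayed between -1.39 and -1.12, and Snhg8 with corrected length is the 1 estimate that crossed 0.

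Of the genomic neighbours, few were called, where 6.99% of all genes tested were higher and 7.69% lower. The nearest tested protein-coding genes on both sides gave 17 distinct genes, of which 0 were higher and 1 was lower by edgeR, and the median was 0.04 on the log2 scale. The lower one was Rc3h1, which encodes the RNA-binding protein Roquin and lies 59444 bases from Gas5, with a log2 fold change of -0.57 (adjusted p = 0.0268 by edgeR, and 0.110 with corrected transcript length). Zbtb37, a zinc finger gene on the other strand whose locus spans Gas5 without shared exon bases, fell by 1.15 on the log2 scale (adjusted p = 0.0141). Rcc1, which overlaps Snhg3, rose by 0.76 (adjusted p = 0.0232). These 3 calls were lost when any 1 Myc_Utx line or Myc_p53 line 3 was left out, with adjusted p up to 0.0997 for Rc3h1, 0.0630 for Zbtb37 and 0.0878 for Rcc1. Slc3a2, the heavy chain of amino acid transporters, starts 106 bases from Snhg1 on the other strand with an estimate of 0.32 (adjusted p = 0.246), near that of Snhg1. Frmd8, 4224 bases from Neat1, was lower in every Myc_Utx line with -0.51 (adjusted p = 0.0865). Trnau1ap, 739 bases from Snhg12, was at 0.36 (adjusted p = 0.131).

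Other RNAs of the same kind moved in both directions. Of 14 other snoRNA host RNAs listed, 7 were tested, 1 was higher and 1 lower, and the median was -0.03 on the log2 scale. Over all genes tested, 6.99% were higher and 7.69% lower. Snhg15 was at 31.3, 33.1 and 35.6 CPM in Myc_Utx lines and at 18.6, 14.3 and 13.4 CPM in Myc_p53 lines, with a log2 fold change of 1.11 (95% interval 0.65 to 1.57, adjusted p = 0.0206 by edgeR). Snhg17 was at 44.5, 47.9 and 44.3 against 65.3, 74.1 and 67.0 CPM, with -0.59 (adjusted p = 0.0308, 0.0681 with corrected transcript length and 0.0694 without the filter on low counts). Both groups of lines were apart for these 2 genes and for Snhg20, which was lower in every Myc_Utx line. Snhg20 was at -0.86 (adjusted p = 0.0705), Snhg4 at -0.51 (0.161), Zfas1 at 0.39 (0.255), Snhg14 at 0.58 (0.442) and Epb41l4aos at -0.03 (0.937). Both calls were lost without any 1 Myc_Utx line or without Myc_p53 line 3, with adjusted p up to 0.0843 for Snhg15 and 0.118 for Snhg17.

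Among 12 other long noncoding RNAs tested, 4 were lower and 0 higher by edgeR, where 2 had an estimate above 0, and the median was -0.77 on the log2 scale. Of those 2, Gm26917 had the highest level of the list. It was at 840.4, 707.4 and 919.9 CPM in Myc_Utx lines and at 600.3, 528.6 and 377.7 CPM in Myc_p53 lines. Its log2 fold change was 0.71 (adjusted p = 0.0576 by edgeR). Over all genes tested, 7.69% were lower and 6.99% higher. Mir17hg, the precursor of the miR-17 cluster and a target of MYC, was at 15.8, 14.04 and 20.7 CPM in Myc_Utx lines and at 44.7, 40.4 and 36.1 CPM in Myc_p53 lines, with -1.26 (adjusted p = 0.0187). Jpx, an activator of Xist, had 6 to 12 counts against 32 to 50, and its estimate was -1.79 (adjusted p = 0.0253). Tug1 was at 111.5, 119.3 and 90.2 against 153.3, 223.3 and 163.4 CPM, with -0.75 (adjusted p = 0.0464), and 1700020I14Rik had -0.79 (adjusted p = 0.0497). With corrected transcript length Tug1 and 1700020I14Rik had adjusted p = 0.104 and 0.105. Without any 1 Myc_Utx line or without Myc_p53 line 3, 0 of the 12 passed, and without Myc_p53 line 1 there were 2. DESeq2 called 4 lower and 1 higher.

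Protein-coding hosts of snoRNAs, many of them ribosomal protein and translation genes with TOP starts, were higher for 11 of 24 genes tested and lower for 0. Their median was 0.55 on the log2 scale, and with corrected transcript length 10 were higher and the median was 0.48. Beside this list and the next, 6.99% of all genes tested were higher and 7.69% lower. Rps3, of the small ribosomal subunit, was at 1541, 1374 and 1764 CPM in Myc_Utx lines and at 855, 811 and 755 CPM in Myc_p53 lines, with 0.95 (adjusted p = 0.0164 by edgeR). Hspa8, a cytosolic chaperone and the host of several box C/D snoRNAs, had 0.73 (adjusted p = 0.0177), Rpl13a 1.01 (0.0186) and Rpl27a 0.95 (0.0188), both of the large ribosomal subunit. Whether this list differs from the long noncoding hosts was not tested. Of 17 proteins of box C/D and H/ACA snoRNA particles, 3 were higher and 0 lower, with a median of 0.48: Ruvbl2, an assembly ATPase, had 0.87 (adjusted p = 0.0164), the methyltransferase Fbl 0.69 (0.0463) and the core protein Nop58 0.55 (0.0425). Nop58 and Nop56 are also among the 24 protein-coding hosts, so the call of Nop58 is counted in both lists. With total counts in place of TMM 1 particle protein was higher, and with DESeq2 7 were. In both lists 0 genes passed without any 1 Myc_Utx line or without Myc_p53 line 3, and 7 protein-coding hosts passed without Myc_p53 line 1, while the medians stayed between 0.48 and 0.63 for the protein-coding hosts and between 0.43 and 0.57 for the particle proteins with each line left out.

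Proteins that act on these RNAs or sit with them had few calls, where 6.99% of all genes tested were higher and 7.69% lower. Of 17 nonsense-mediated decay factors, 0 were higher and 2 lower, the effector Smg5 with -0.56 (adjusted p = 0.0431 by edgeR) and the kinase Smg1 with -0.46 (adjusted p = 0.0433), and the median was 0.16. Smg1 was at -0.08 and Smg5 at -0.41 with corrected transcript length (adjusted p = 0.697 and 0.105). The 13 paraspeckle proteins tested had a median of 0.20 on the log2 scale. The paraspeckle core proteins Nono, Sfpq and Pspc1, which bind Neat1, had 0.36, 0.28 and -0.47 (adjusted p = 0.0824, 0.0990 and 0.138). Of 12 nuclear speckle proteins, 2 were higher, the splicing factors Srsf7 with 0.51 (adjusted p = 0.0343) and Srsf3 with 0.46 (0.0416), and 1 was lower, the scaffold Srrm2 with -0.43 (0.0362). With corrected length Srrm2 was at -0.17 (adjusted p = 0.319) and Srsf7 at 0.36 (adjusted p = 0.0785), so that 1 was higher and 0 lower, the same counts as without the filter on low counts. With total counts 1 was higher and 1 lower, and without Myc_p53 line 1 there were 0 of either. Without the filter 0 decay factors were lower. All calls of these 3 lists were lost without any 1 Myc_Utx line and without Myc_p53 line 3.

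**Figure D5:**
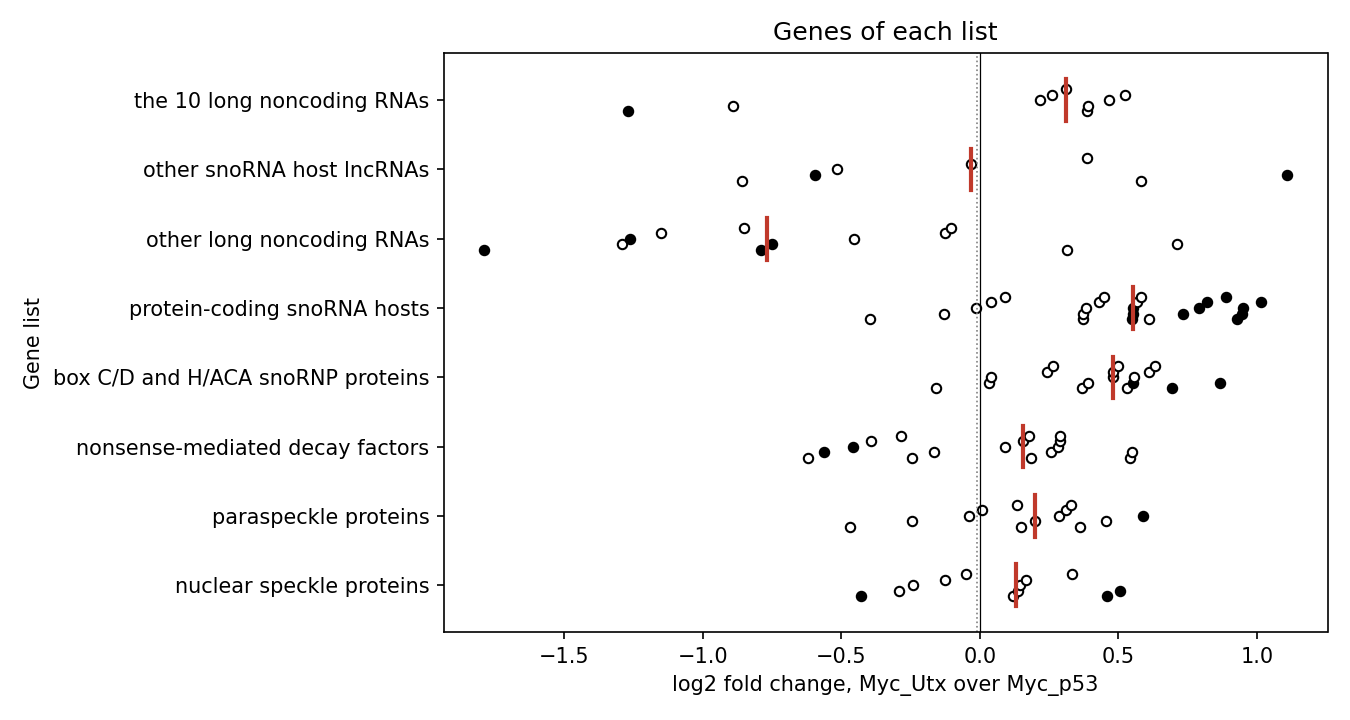
Log2 fold change of Myc_Utx over Myc_p53 for the tested genes of each list. Filled dots passed an adjusted p under 0.05, red bars are list medians and the dotted line is the median of all genes tested, -0.01. The protein-coding snoRNA hosts have 11 filled dots, all above 0, and the other long noncoding RNAs have 4, all below 0.

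Markers of other cell types moved with the groups in part. Of 8 macrophage markers, 6 were tested and 5 were lower in Myc_Utx lines, where 7.69% of all genes tested were lower. Their summed level was 2.79 to 5.99 CPM in Myc_Utx lines and 39.9 to 108.1 CPM in Myc_p53 lines, and the defining leukocyte marker Ptprc had 0 counts in every Myc_Utx line and 1 to 3 in Myc_p53 lines. Csf1r had 0 or 1 counts in Myc_Utx lines and 39 to 259 in Myc_p53 lines. Of the macrophage markers, 0 were called without 2A, 2D or Myc_p53 line 3, 1 without 2B and 3 without Myc_p53 line 1. Of 9 fibroblast markers, 6 were tested and 0 were called, with sums of 1952.7 to 2692.7 CPM in Myc_Utx and 41.4 to 3169.9 CPM in Myc_p53 lines, and Lum was at 0 or 1 counts throughout. Col3a1 was the largest part of the sum in the Myc_Utx lines and in Myc_p53 line 2, Dcn in Myc_p53 line 1 (13.6 CPM) and Col1a1 in Myc_p53 line 3 (236.0 CPM). Of 10 hepatocyte markers, 3 were tested and 0 called, with sums of 2.89 to 93.8 and 39.7 to 1209.8 CPM, most of it Krt8 and Krt18 where the sum was high. The 5 endothelial markers were too low to test, with sums of at most 2.21 CPM. In these bulk samples a difference in cell makeup and a difference in RNA per cell cannot be told apart. The part of such cells in the levels of Malat1, Neat1 and the hosts was not tested.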

How the data were processed

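RNA of 3 Myc_Utx and 3 Myc_p53 cell lines was sequenced. The file the authors deposited holds unnormalized counts for each Ensembl gene and a length in bases among other annotation. Per the labels, reads were trimmed with Trimmomatic 0.36, aligned with STAR 2.5.3a to GRCm38 (mm10) and counted with featureCounts 1.6.3. The paper's methods name HTSeq, a human build and Mll3 lines, whereas the table holds mouse genes and the labels say Myc_Utx. Gene coordinates equalled GENCODE M21 for 96.0% of genes. Strand setting, multi-mapping and RNA selection are not given in the sources used here, so overlapping genes are uncertain.

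The groups were compared with edgeR 4.0.16 (R 4.3.3): filterByExpr with a minimum count of 10, TMM and the quasi-likelihood F test, with p adjusted by Benjamini-Hochberg over 11510 genes. A standard error is the absolute estimate over the root of F. Totals of 4656103 to 6937497 counts limit low genes. Alternatives were 12: other filters, DESeq2 size factors, total counts, DESeq2 1.42.0, per-line length offsets (MASS 7.3.60.0.1, splines with 5 degrees of freedom) and leaving out each line. The fit and the offsets were tested on simulated data.

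The RNAs and gene lists were chosen with earlier results of these data known, so they are described, with no set test. Named were all 10 RNAs, the tested other host RNAs, up to 4 genes per other list with the smallest adjusted p under 0.05, the genomic neighbours, Kdm6a and Myc. The markers and Nono, Sfpq, Pspc1, Gm26917 and Nop56 were added after their values were seen. Some results are not reported here.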

Additional observations from a re-analysis of the deposited data

How the results depend on the processing

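Over the 9 tested RNAs and the 6 alternatives with all 6 cell lines, 52 of the log2 fold changes kept their direction and side of the threshold, 1 passed it newly (Neat1 with DESeq2, -0.89) and 1 turned (Snhg8 with transcript length offsets, -0.0409). Over the 6 fits that left out a cell line, 51 were kept and 3 lost the call, all of them Malat1 without a Myc_Utx line. With DESeq2, 1281 genes were higher and 1578 lower, and 2 of the 10 RNAs were lower, Malat1 and Neat1. With a line left out, genes higher ranged from 3 (without Myc_Utx 2A) to 836 and genes lower from 1 (without 2A) to 1118, and of the 10 RNAs 0 were higher and 0 to 1 lower. Without 2B they were 43 and 38, without 2D 43 and 28, without Myc_p53 1 481 and 627, and without Myc_p53 3 63 and 57. The cause was not tested. All genes tested had a median of -0.0763 on the log2 scale with total counts and 0.0281 with length offsets. Snhg3 could not be fitted under the filters and was fitted only without one. No paired analysis was possible because the groups share no replicate numbers. The depth limits Snhg3 and the snoRNA rows, which had a few counts or none.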

Other observations

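Across all annotated long noncoding genes, a class chosen after the data had been seen, 330 were tested. Of these, 8 (2.42%) were higher and 41 (12.4%) lower in Myc_Utx lines at an adjusted p under 0.05 by edgeR, with a median log2 fold change of -0.56. Of 10924 protein-coding genes, 789 (7.22%) were higher and 824 (7.54%) lower, with a median of -0.004. Among the long noncoding genes with high enough counts, Dleu2, the host of the miR-15a and miR-16-1 precursors, had 46, 40 and 28 counts in Myc_Utx lines and 130, 143 and 178 in Myc_p53 lines, a log2 fold change of -1.66 (adjusted p = 0.0164). F730043M19Rik had 10, 26 and 32 counts against 120, 144 and 308, with -2.68 (adjusted p = 0.0275), and Gm21781 had -1.58 (adjusted p = 0.0336). Those that were higher included Snhg15, then 1810026B05Rik with 0.98 (adjusted p = 0.0362) and AU020206 with 0.86 (adjusted p = 0.0287). The tested long noncoding genes had a median listed length of 2791.5 bases and the protein-coding genes one of 4569.5 bases.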
